A study of Glycine max with 12 samples.

Results

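The seed coat peroxidase gene of the soybean Ep locus, Glyma.09G022300, was followed across immature seed coats of 2 lines that differ at the K1 and I loci of pigment patterning. It was taken by its identifier, as 1 gene of 56044 in the deposited table, and it has 1 transcript model of 88647. There were 4 groups of 3 libraries: the black saddle of Clark 18a (alleles i-i and k1), the yellow region of Clark 18a, the black saddle of Clark 8 (alleles i-k and K1) and the yellow region of Clark 8. All came from greenhouse plants and from seeds of 100 to 200 mg fresh weight, whose coats were cut, while still immature, into the part that would form the black saddle and the part that would stay yellow, and then freeze-dried. Effects of K1 and I on the gene cannot be told apart here, and the labels used here do not give the Ep allele of either line.

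Peroxidases of this class are secreted, heme-containing enzymes that use hydrogen peroxide to oxidise phenolic substrates, and some of them help to cross-link cell walls. In soybean, the dominant Ep allele gives seed coats with high peroxidase activity. The enzyme accumulates in the hourglass cells, a layer of thick-walled cells under the epidermis of the coat, and recessive coats have little of it. Because the assay is a simple colour reaction on the hull, peroxidase activity has long been used to tell soybean varieties apart.

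The identifier places the gene on chromosome 9. Its coding sequence of 1059 bases, in a cDNA of 1289 bases, codes for 352 amino acids and a stop codon. RefSeq (assembly Glycine_max_v4.0) lists a protein-coding gene with the symbol Ep on chromosome 9 as well, but its table carries no Glyma identifiers, so the link between the name and Glyma.09G022300 rests on the gene's label and not on a table. No second marker of hourglass cells was among the genes examined, and the share of these cells in each dissected piece was not tested. In these bulk samples, fewer hourglass cells and less of the transcript per cell cannot be told apart.

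Summed hits ranged from 83123127 to 192296346 per library, and all 4 from Bio Repeat 3 had fewer than any library of repeats 1 and 2. Their library numbers also stand apart, and 27.7% of the 30775 genes tested differed between repeat 3 and the other repeats in limma at an adjusted p under 0.05 (12.5% higher and 15.2% lower in repeat 3). The peroxidase gene did not (log2 difference -0.12, SE 0.262, limma adjusted p = 0.762). Glyma.11G190900, the identifier recalled for Argonaute5 and not named in any table used here, ranged from 0.810 to 2.5 RPKM in the Clark 18a libraries and from 3.12 to 9.59 RPKM in the Clark 8 libraries, without overlap. RPKM is the number of hits per kilobase of transcript, scaled to the size of the library.

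The peroxidase transcript was well expressed in every library, at 12.4 to 52.6 RPKM (mean 25.7 ± 11.8, SD, n = 12). By mean RPKM it ranked 2294 of 56044 genes, and its rank within single libraries ran from 894 in Clark 8 black repeat 1 to 5486 in Clark 8 yellow repeat 2. Each value rested on 2059 to 9807 hits. The 95% counting interval (exact Poisson) was thus between 1.98% and 4.34% of the value on either side. It covers counting error only, and the libraries of a group differed by far more than this, with coefficients of variation of 9.96% to 56%.

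In the black saddle of Clark 18a the gene measured 43.3, 16.9 and 18.7 RPKM in repeats 1, 2 and 3, and in the yellow region of Clark 18a 23.9, 27.4 and 22.7 RPKM. In the black saddle of Clark 8 it measured 52.6, 25.5 and 30.9 RPKM, and in the yellow region of Clark 8 14.8, 12.4 and 18.9 RPKM. Repeat 1 was the highest of the black libraries in both lines, and repeat 1 was in the middle of the yellow libraries in both lines. The black and yellow libraries overlapped in Clark 18a and did not overlap in Clark 8. How many of all genes show no overlap within a single line was not counted.

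**Figure D1:**
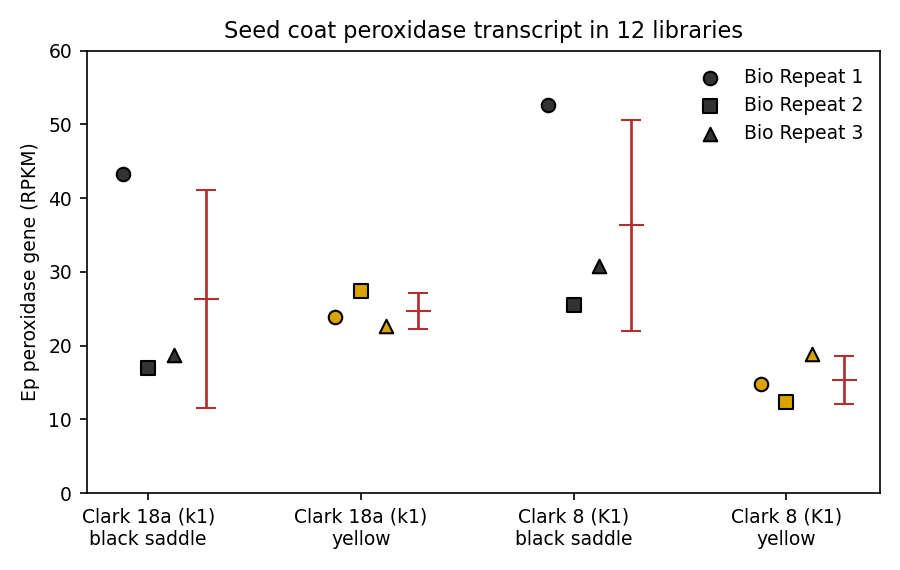
RPKM of the peroxidase gene in each library, by line and region. Points are libraries, with the marker shape giving the Bio Repeat and the colour the region, and the bars to their right are the mean ± SD (n = 3). The Clark 8 black libraries lie at 25.5 to 52.6, all above the Clark 8 yellow libraries at 12.4 to 18.9, while the Clark 18a black libraries lie on both sides of the Clark 18a yellow ones.

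Ordered by mean, the levels were 36.3 ± 14.3 RPKM in Clark 8 black, 26.3 ± 14.8 RPKM in Clark 18a black, 24.7 ± 2.46 RPKM in Clark 18a yellow and 15.4 ± 3.27 RPKM in Clark 8 yellow (SD, n = 3 each). No neighbours in this order passed the threshold in limma, with p-values adjusted over all tested genes of 0.955, 0.967 and 0.438 down the order. The ends of the order, both from Clark 8, are the pair that passed. Over both regions the lines had close means, at 25.5 ± 9.50 RPKM in Clark 18a and 25.9 ± 14.8 RPKM in Clark 8 (SD, n = 6 each).

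The comparison of regions within a line asked whether the part of the coat that will turn black differs from the part that stays yellow. In Clark 8 the peroxidase transcript was higher in the black saddle, at 2.36 times the mean of the yellow region. As log2(RPKM + 1), a scale on which low genes show too small a change, the difference was 1.14 (SE 0.344, 95% interval 0.38 to 1.90), and the limma adjusted p of 0.0496 lay just inside the threshold of 0.05. It was above 0 in all 3 repeats, at 1.76, 0.99 and 0.68 in repeats 1, 2 and 3. In the same comparison 13.9% of the 30775 tested genes were called, 7.51% as higher and 6.35% as lower in black. With the repeat number as a block the adjusted p was 0.0214, and 24.3% of the genes were called. That block is shared by both lines, so it does not pair black with yellow within a line. The size of the difference was exceeded by 5.68% of the tested genes.

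That call was not stable to the choice of libraries. It was lost without Clark 8 black repeat 1 (adjusted p = 0.172, difference 0.85), repeat 2 (0.0518) or repeat 3 (0.0815), without Clark 8 yellow repeat 1 (0.124), repeat 2 (0.164) or repeat 3 (0.0610), and without Clark 18a yellow repeat 1 (0.0694), repeat 2 (0.0684) or repeat 3 (0.0631), the last 3 of which enter only through the shared estimate of spread. Over 23 alternatives the limma adjusted p ran from 0.00239 to 0.172, and the difference stayed between 0.85 and 1.37. With the table of all 56152 transcript models that passed the filter the adjusted p was 0.0442.

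In Clark 18a the regions did not differ detectably. The difference of black minus yellow was -0.03 on the log2 scale (SE 0.344, 95% interval -0.79 to 0.72, limma adjusted p = 0.967), where 15% of the tested genes were called, 8.86% as higher and 6.11% as lower in black (25.7% with the repeat number as a block). The repeats went in different directions, at 0.83, -0.67 and -0.26, and the estimate fell to -0.45 without Clark 18a black repeat 1 and reached 0.21 without Clark 18a black repeat 2. The interval overlaps that of Clark 8.

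**Figure D2:**
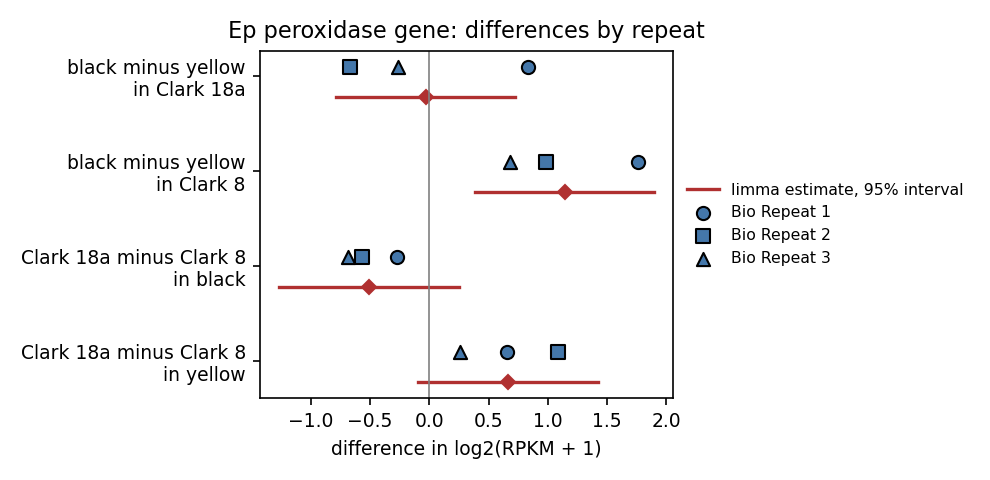
Differences in log2(RPKM + 1) of the peroxidase gene. Blue symbols are the differences between same-numbered libraries, with the shape giving the Bio Repeat, and the red diamonds and lines are the limma estimates with 95% intervals. All 3 repeats are above 0 for black minus yellow in Clark 8 (0.68 to 1.76), and they fall on both sides of 0 in Clark 18a (-0.67 to 0.83).

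The region difference in Clark 18a minus that in Clark 8 was tested as an interaction. It was -1.17 on the log2 scale (SE 0.486, 95% interval -2.25 to -0.10), with an unadjusted p of 0.0343 and a limma adjusted p of 0.9999, so it did not pass. Its size was exceeded by 0.877% of the tested genes. Limma called 0.0162% of them (5 genes, 0.00975% higher and 0.0065% lower), and with the repeat number as a block it called 0 genes. At an unadjusted p under 0.05 there were 1405 genes with the block and 767 genes without it. Both counts are below what that threshold gives on average over 30775 genes when none differ. The region effect seen in Clark 8 is therefore not shown to differ from that in Clark 18a. Over both lines together, black minus yellow was 0.55 on the log2 scale, and an exact permutation of the region labels within each line gave p = 0.115 (two-sided, 400 arrangements, smallest possible p 0.005).

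Between the lines, the mean of Clark 18a was below that of Clark 8 in the black saddle and above it in the yellow region, and neither difference passed. In the black saddle, Clark 18a minus Clark 8 was -0.51 (SE 0.344, 95% interval -1.27 to 0.25, limma adjusted p = 0.955), where 0.0812% of the tested genes were called, 0.0195% as higher and 0.0617% as lower in Clark 18a (0.169% with the repeat number as a block). The size of this difference was exceeded by 7.10% of the tested genes. Between same-numbered libraries it was -0.27, -0.57 and -0.69 in repeats 1, 2 and 3. The lines are matched here by repeat number only, and another matching would give other differences. The libraries of the lines overlapped, since Clark 18a black repeat 1 at 43.3 RPKM exceeded Clark 8 black repeats 2 and 3.

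In the yellow region, Clark 18a minus Clark 8 was 0.66 (SE 0.344, 95% interval -0.09 to 1.42, limma adjusted p = 0.438), a ratio of means of 1.61. Here 0.413% of the tested genes were called, 0.107% as higher and 0.305% as lower in Clark 18a (0.676% with the repeat number as a block). The size of the difference was exceeded by 6.38% of the tested genes. The SE of 0.344 and its interval rest on a spread shared by all groups, the black ones included. On the log2 scale the gene's SD was 0.72 and 0.53 in black of Clark 18a and Clark 8, and 0.14 and 0.29 in yellow. With only the yellow libraries the difference was again 0.66, the SE was 0.175, and the adjusted threshold was still not passed. The width of the main interval is therefore not set by the yellow libraries alone. The lines did not overlap, with 22.7 to 27.4 RPKM in Clark 18a and 12.4 to 18.9 RPKM in Clark 8. Between same-numbered libraries, matched by number only, the difference was 0.65, 1.08 and 0.25 in repeats 1, 2 and 3. With array weights, which give less weight to libraries far from their group, it passed (difference 0.89, adjusted p = 0.0380), and over the 23 alternatives the adjusted p ran from 0.0380 to 0.931. Over both regions, the lines differed by 0.08 on the log2 scale (exact permutation of the line labels within each region, p = 0.815, two-sided, 400 arrangements).

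**Figure D3:**
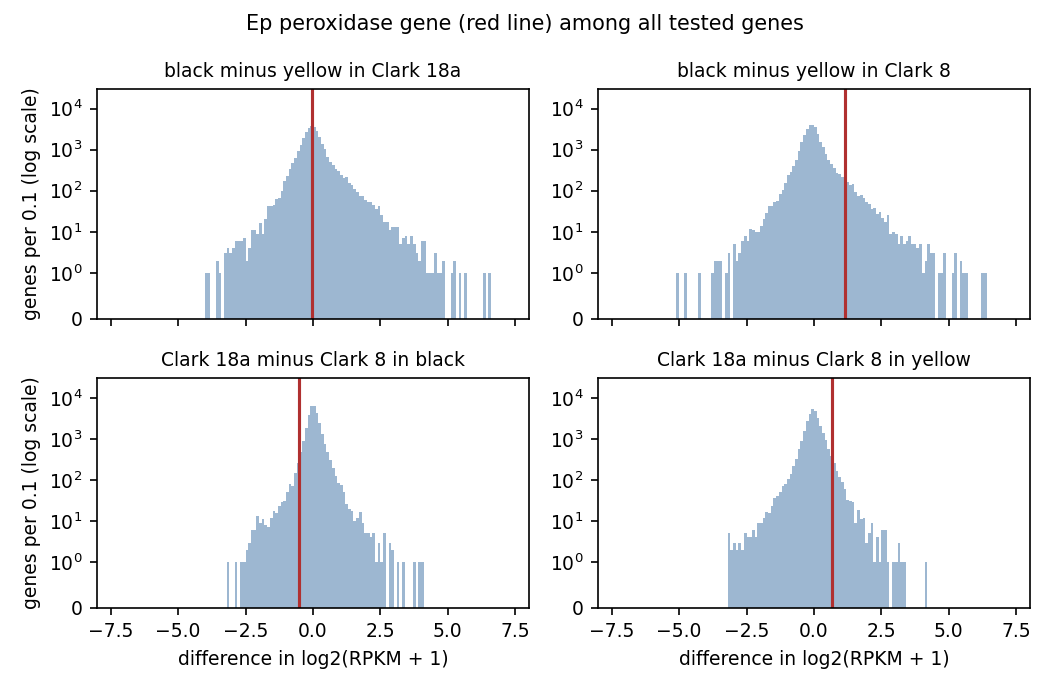
Difference in log2(RPKM + 1) of all 30775 tested genes in 4 comparisons (bars, genes per bin of 0.1, log scale) with the peroxidase gene as a red line. The line stands at 1.14 for black minus yellow in Clark 8, where 5.68% of the genes have a larger absolute difference, and near the centre of the bars in Clark 18a.

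The peroxidase gene varied more among repeats than most genes of its level. Its residual SD within groups was 0.47 on the log2 scale, against a median of 0.25 for the 1171 tested genes within 0.25 log2 units of its mean level, and 85.3% of those had a smaller SD. In the black saddle its SD was 0.72 in Clark 18a and 0.53 in Clark 8, against medians of 0.25 and 0.21 for the genes of similar level. In the yellow region its SD was 0.14 in Clark 18a and 0.29 in Clark 8, against medians of 0.21 and 0.22, so it lay above the median in 3 groups, the exception being Clark 18a yellow. The genes ranked just above and just below it by mean RPKM, 3 on each side, had ratios of highest to lowest library between 1.57 and 4.03, while its own was 4.24.

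The sum of 10 identifiers recalled as embryo storage protein genes, which no table used here names, was set beside these values as a gauge of carried-over embryo tissue. All 10 were above 0 in every library. Their summed RPKM ranged from 41.7 to 315 in Clark 18a black, 61.3 to 207 in Clark 18a yellow, 53.9 to 68.2 in Clark 8 black and 64.5 to 89.5 in Clark 8 yellow. In Clark 18a black the sums were 113, 315 and 41.7 in repeats 1, 2 and 3, beside peroxidase values of 43.3, 16.9 and 18.7 RPKM. Of the 10, 0 were called in any comparison of regions or lines, where the shares over all tested genes were 15% and 13.9% for region and 0.0812% and 0.413% for line. Their median difference of Clark 18a minus Clark 8 was 0.73 on the log2 scale in black and 0.43 in yellow. In repeat 3, 1 of the 10 was called lower, where 15.2% of all tested genes were. The part of this list in the peroxidase values was not tested.

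The 20 genes with the nearest identifiers, 10 on each side, were much lower. The highest of them, Glyma.09G021400, averaged 9.29 ± 0.846 RPKM over the 12 libraries (SD), against 25.7 RPKM for the peroxidase gene, and 14 averaged under 1 RPKM. Only 7 passed the filter of at least 1 RPKM in at least 3 libraries. Of these 7, 0 were higher and 1 was lower in black in Clark 8, and 0 were called in Clark 18a or between the lines. Over all tested genes 7.51% were called higher and 6.35% lower in black in Clark 8, and 15% were called in Clark 18a. Between the lines 0.0812% were called in black and 0.413% in yellow. Counts this small among 7 genes therefore do not set the neighbours apart. The 1 called gene, Glyma.09G023200, averaged 6.77 ± 1.17 RPKM in black and 9.37 ± 0.877 RPKM in yellow of Clark 8 (SD, n = 3 each; log2 difference -0.42, limma adjusted p = 0.0441), a direction opposite to that of the peroxidase gene. It lost its call in 13 of 23 alternatives, over which the adjusted p ran from 0.000678 to 0.169. Across the repeats 1 of the 7 was called, Glyma.09G022100, which was lower in repeat 3 by a log2 difference of -0.74 (limma adjusted p = 0.000156). Over all tested genes 27.7% were called in that comparison, 15.2% as lower in repeat 3. The median black minus yellow difference of the 7 was -0.20 in both lines, against -0.02 in Clark 18a and -0.07 in Clark 8 over all tested genes.

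Among these neighbours, 5 have a coding length within 20 bases of the peroxidase gene's (1044 to 1068 bases), a group chosen after their values were seen. None of the 5 exceeded 0.914 RPKM in any library, and Glyma.09G022800 was listed at 0 in all 12. The most abundant, Glyma.09G022400, lies next to the peroxidase gene by identifier. It measured 0.208 to 0.847 RPKM in Clark 18a black (25 to 141 hits) and 0.00442 to 0.0317 RPKM in Clark 18a yellow (1 to 5 hits), and 0.376 to 0.914 RPKM in Clark 8 black (44 to 160 hits) and 0.00833 to 0.0974 RPKM in Clark 8 yellow (1 to 20 hits). The regions did not overlap in either line. Glyma.09G022900 showed the same order at lower values, with 0.128 to 0.191 RPKM in Clark 18a black, 0 to 0.0687 RPKM in Clark 18a yellow, 0.104 to 0.165 RPKM in Clark 8 black and 0.0160 to 0.0328 RPKM in Clark 8 yellow. The order was not particular to genes of this coding length, since Glyma.09G022000, with 1305 coding bases, had 0.147 to 0.281 RPKM in Clark 18a black, 0.0114 to 0.0508 RPKM in Clark 18a yellow, 0.0982 to 0.205 RPKM in Clark 8 black and 0.00598 to 0.0265 RPKM in Clark 8 yellow. None of the 3 passed the filter, and they are named after their values were seen. In limma without the filter, black minus yellow in Clark 18a and Clark 8 had adjusted p of 0.00729 and 0.0319 for Glyma.09G022000. The values were 0.00638 and 0.021 for Glyma.09G022900, and 0.0626 and 0.0549 for Glyma.09G022400. Since the 3 genes were picked on the same libraries, these p-values are a description only. Of the 20 neighbours these 3 were higher in black without overlap in both lines and 2 were lower, Glyma.09G021400 and Glyma.09G023200, while over all 56044 genes 9.52% were higher and 6.95% lower in this way. Reads shared between these genes and the peroxidase gene were not tested, and how the authors treated reads with several hits is not given in the sources used here.

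**Figure D4:**
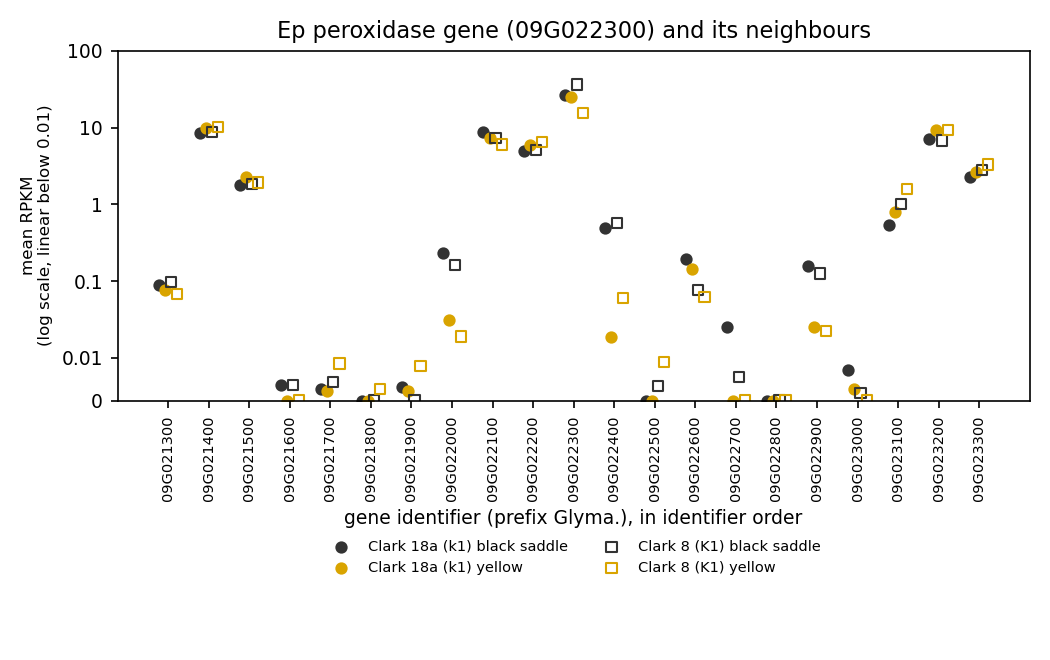
Mean RPKM (n = 3, log scale, linear below 0.01) of the peroxidase gene and its 20 nearest identifiers, in identifier order and not to physical scale. Circles are Clark 18a and squares Clark 8, dark for the black saddle and gold for the yellow region. The peroxidase gene is the highest of the 21 in each group, and Glyma.09G022000, Glyma.09G022400 and Glyma.09G022900 stand higher in black than in yellow in both lines at levels under 1 RPKM.

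Genes whose pattern was most like that of the peroxidase gene were found by Pearson's r of log2(RPKM + 1) over the 12 libraries, among 7068 other genes with a mean of at least 10 RPKM. The median r was -0.01 and 0 genes reached 0.9. The highest were Glyma.13G277000 (r = 0.868), Glyma.12G064900 (0.855), Glyma.14G086300 (0.840), Glyma.17G109700 (0.832) and Glyma.06G277600 (0.815). These are the extremes of a long list over libraries that share group and repeat, so they are given as a description, and the identifiers are not annotated here.

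Of the 5, Glyma.14G086300 had by far the highest level and the widest range. It measured 289, 230 and 147 RPKM in Clark 18a black, 214, 154 and 214 RPKM in Clark 18a yellow, 426, 197 and 251 RPKM in Clark 8 black and 165, 121 and 180 RPKM in Clark 8 yellow, in repeats 1, 2 and 3. Repeat 1 was its highest black library in both lines, and Clark 8 yellow repeat 2 its lowest of all. The peroxidase gene has the same order, but Glyma.14G086300 was picked for its likeness on these same libraries. The other 4 stayed between 7.95 and 21.6 RPKM. The 3 genes with the most opposite pattern were Glyma.13G134600 (r = -0.867), Glyma.13G066500 (-0.866) and Glyma.09G245700 (-0.859).

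**Figure D5:**
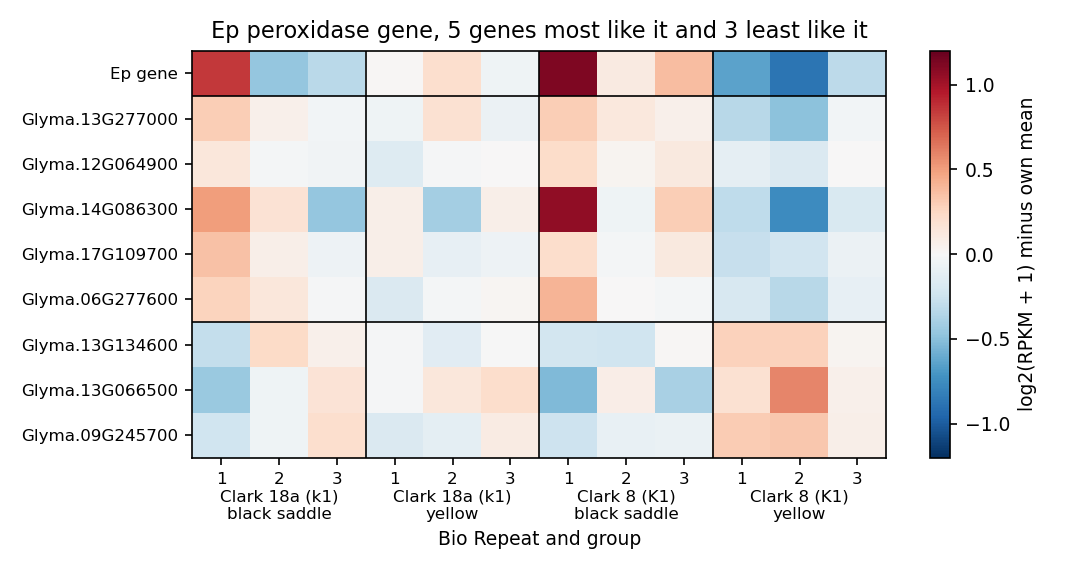
Log2(RPKM + 1) minus each gene's own mean over the 12 libraries, for the peroxidase gene (top row), the 5 genes most like it and the 3 least like it, with libraries in columns by group and Bio Repeat. Black repeat 1 is high in both lines in the peroxidase gene and in the 5 genes, and Clark 8 yellow repeats 1 and 2 are low. The genes below the top row were picked by r on these same libraries.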

How the data were processed

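Polyadenylated RNA of 12 libraries was read, per the labels, by Illumina HiSeq sequencing. The submitters' processing notes name Bowtie 1. Not given in the sources used here: build, annotation version, strandedness and the treatment of reads with several hits. The authors deposited 1 table of RPKM with coding and cDNA lengths for 88647 transcript models. RPKM times cDNA length gave whole multiples of 1 hit in every library (100% within 0.05 of a whole hit, for values up to 1000 hits), from which hits were recovered. If the authors counted a hit for each model it matched, summed hits exceed the reads.

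The model of longest cDNA stood for each gene. Genes with at least 1 RPKM in at least 3 libraries (30775) were fitted as log2(RPKM + 1) in limma 3.58.1 (R 4.3.3), using group means, a trend of variance on intensity, and all 12 libraries in 1 estimate of variance. P-values are two-sided and adjusted by Benjamini-Hochberg over all tested genes. The repeat comparison added a term for Bio Repeat 3. A test of 3 libraries against 3 cannot give an exact permutation p below 0.1, so the exact tests pooled the lines or the regions. The fit was also run on simulated counts with the same dispersion for all genes and no repeat effect. That simulation cannot show how the fit behaves under the repeat differences seen here.

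The labels call the libraries biological repeats without saying if each is from other plants. The p-values therefore reflect only how much these samples vary, which may be technical. Same-numbered black and yellow libraries of a line deviated together from their group means (r = 0.522 to 0.745 over the tested genes, against at most 0.129 between different numbers). Between the lines this was less clear, at 0.124 to 0.503 against at most 0.290. Deviations from a group mean sum to 0, so these r values are not independent of each other. The repeat number, shared by both lines, was used as a block in an alternative, so pairs within a line were not fitted. Named genes were the peroxidase gene, its neighbours by identifier, the genes ranked next to it, the 5 most and 3 least like it, and Argonaute5. A list of other peroxidases was planned by annotation and could not be made, since no table used here links descriptions to the identifiers. The gene and the lists were chosen with earlier results of these data known.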

Additional observations from a re-analysis of the deposited data

How the results depend on the processing

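Black minus yellow in Clark 8 kept its direction in all 23 alternatives and its call in 9 of them. It did not pass with a pseudocount of 5 (0.98, adjusted p = 0.0559), without a filter (1.14, 0.0833), with a minimum of 5 RPKM (1.14, 0.0551), without all Bio Repeat 3 libraries (1.37, 0.0937) or with voom on recovered hits (1.17, 0.0556). Leaving out 1 library gave 0.85 to 1.35, and 9 of the 12 omissions ended the call. Black minus yellow in Clark 18a, at -0.03, turned to 0.083 without repeat 3, and single omissions gave -0.45 to 0.21. The line difference in yellow passed with array weights only (0.89), and single omissions gave 0.53 to 0.81. The line difference in black and the interaction kept direction and side in all alternatives, with single omissions giving -0.92 to -0.22 and -1.59 to -0.88. Repeat 3 minus repeats 1 and 2 ran from -0.31 to 0.039 over single omissions, the region difference over both lines from 0.35 to 0.68, and the line difference over both regions from -0.13 to 0.22; the sign of the first and last of these turned in 2 omissions each. The cause of these changes was not tested.

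With the repeat number as a block, no call of the peroxidase gene changed (adjusted p = 0.0214 for black minus yellow in Clark 8, difference 1.14). Exact sign flips of the 6 pair differences, a permutation test, gave p = 0.1875 for region and 0.8125 for line. Counting error is at most 4.34% of each RPKM value.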
